A study of Homo sapiens with 6 samples.

Results

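Peaks on chromosome 20 of RNA recovered with an anti-RBM8A antibody were examined in AGS, an established human gastric adenocarcinoma cell line, by RNA immunoprecipitation and sequencing. The cells were wild type by the labels and in normal growth, with no treatment. The series holds 6 samples, 3 anti-RBM8A immunoprecipitates and 3 inputs, and each immunoprecipitate has 1 peak list made by the authors. The inputs are not analysed here, and there was no immunoprecipitate with a control antibody, so recovery through RBM8A cannot be told apart from nonspecific recovery. Members were all peaks with chr20 in the first column of the 3 lists, leaving out the 12 peaks that overlap chr20:42295659-42345136, the interval of MYBL2. This left 281 of the 5437 peaks of the series, namely 72 of 1480 in replicate 1, 125 of 2155 in replicate 2 and 84 of 1802 in replicate 3. A peak belongs to the short arm when its summit lies below position 27500000 and to the long arm when it lies above. Positions are hg19, counted from 1, and peaks carry no strand.

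RBM8A, also called Y14, pairs with MAGOH in the exon junction complex, which the spliceosome leaves on RNA just upstream of the junction between joined exons. The complex takes part in export of the RNA and travels with it to the cytoplasm. There it takes part in localisation, translation and nonsense-mediated decay. The long arm of chromosome 20 is often gained in gastric cancer. The copy number of either arm in these cells was not measured in the files, nor were gene content and expression, so their part in any difference between arms was not tested.

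The first comparison asked how the peaks were divided between the arms. The long arm held 216 of the 281 peaks and the short arm 65. In the long arm there were 54, 97 and 65 peaks in replicates 1, 2 and 3, against 18, 28 and 19 in the short arm. The long arm thus held 76.7% ± 1.44 of the chromosome's peaks (SD, n = 3) on 56.3% of its length. Its density was 1.52, 2.73 and 1.83 peaks per Mb in replicates 1, 2 and 3, against 0.655, 1.02 and 0.691 peaks per Mb in the short arm. The ranges did not overlap, and the arms differed in the same direction in 3 of 3 replicates. The mean difference was 1.24 ± 0.433 peaks per Mb (SD, n = 3), a ratio within each list of 2.55 ± 0.199. The exact two-sided paired permutation p was 0.25, the smallest that 3 pairs allow, and 0.833 after Benjamini-Hochberg adjustment over 5 measures. Restricted to a −log10 q of 5 or more, the difference was 0.357 peaks per Mb, from means of 0.442 in the long arm and 0.0848 in the short arm. Restricted to a fold of 5 or more, it was 0.457, from 0.554 in the long arm and 0.0970 in the short arm.

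**Figure D1:**
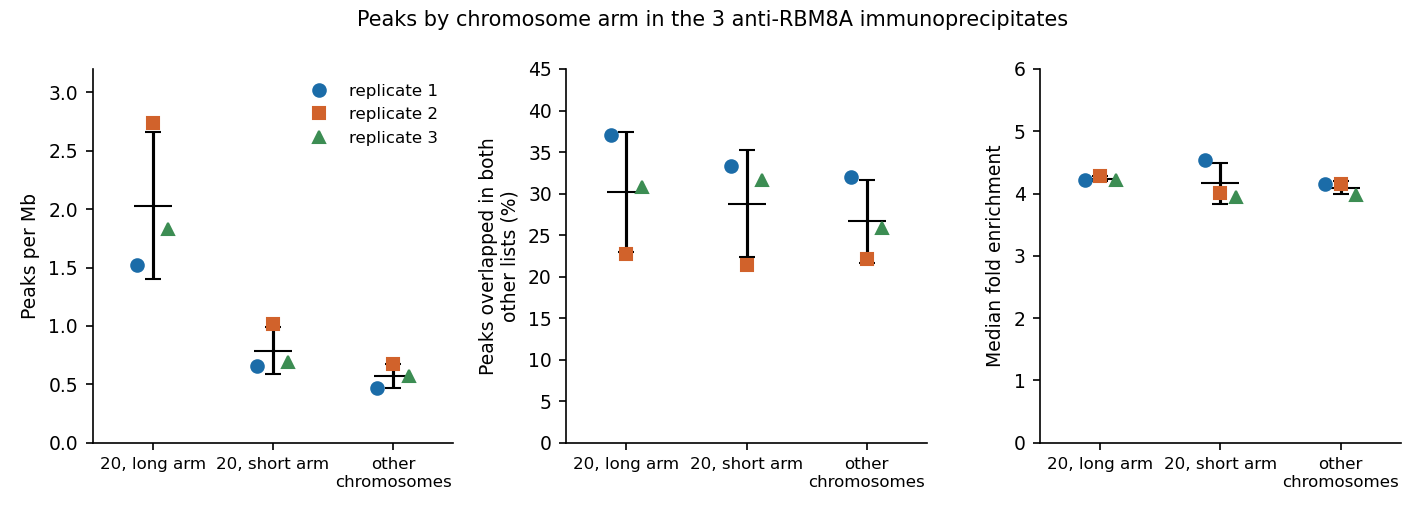
Peaks per Mb, share of peaks overlapped in both other lists and median fold enrichment for the long arm and the short arm of chromosome 20 and for the other chromosomes (1 to 22 and X). Coloured points are the 3 replicates, and black bars with whiskers are the mean and SD. Density in the long arm, 1.52 to 2.73 peaks per Mb, lies above that in the short arm, 0.655 to 1.02, while the other measures overlap.

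Fold, width and depth of the members differed between the arms by less than the spread between replicates. Fold enrichment, the authors' ratio of fragments at the summit to the expected level, had medians of 4.22, 4.29 and 4.22 in the long arm in replicates 1, 2 and 3, against 4.54, 4.00 and 3.94 in the short arm. The long arm was higher in 2 of 3 replicates, with a mean difference of 0.0790 ± 0.348 (SD, n = 3, exact permutation p = 1). Median width was 1916 ± 170 bp in the long arm and 1781 ± 292 bp in the short arm (SD, n = 3 each, exact permutation p = 0.5 for the paired difference). The width difference was 135 ± 174 bp for the members and 295 ± 36.3 bp, with the long arm wider in 3 of 3 replicates, when the peaks of the MYBL2 interval were kept (SD, n = 3, exact permutation p = 0.25). The summit pileup, the number of fragments stacked at the summit worked back from fold and p-value together, had medians of 7, 6 and 6 in the long arm and 6.5, 6 and 6 in the short arm (exact permutation p = 1). Replicate 1 stood against replicates 2 and 3 in both fold and width. The adjusted p over the same 5 measures was 1 for fold, 0.833 for width and 1 for pileup.

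Folds of 5 or more were seen in 13 of 54, 33 of 97 and 13 of 65 long-arm peaks, against 3 of 18, 3 of 28 and 2 of 19 short-arm peaks. The share was 26.03% ± 7.21 in the long arm and 12.6% ± 3.49 in the short arm (SD, n = 3 each), higher in the long arm in every replicate. Over all sequences of the lists the shares were 16.2%, 26.7% and 20.9% in replicates 1, 2 and 3. The long arm was above that background in replicates 1 and 2 and just below it in replicate 3, with 24.1%, 34.0% and 20%. The short arm, with 16.7%, 10.7% and 10.5%, was at it in replicate 1 and below it in replicates 2 and 3. This cut was chosen among several and the difference was not tested. A −log10 q of 5 or more was seen in 7, 24 and 16 long-arm peaks and in 3, 2 and 2 short-arm peaks, where replicate 1 went the other way as a share, with 12.96% in the long arm against 16.7% in the short arm. Over all sequences 13.4%, 15.6% and 16.9% of peaks passed it, so the long arm of replicate 1 stood near the background. In replicates 2 and 3 the long arm, with 24.7% and 24.6%, was above it. The short arm of these 2 replicates, with 7.14% and 10.5%, was below it.

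Recurrence was counted as peaks that overlap a peak of both other lists by at least 1 bp. On chromosome 20 such peaks numbered 26 of 72, 28 of 125 and 26 of 84 in replicates 1, 2 and 3, or 36.1%, 22.4% and 30.95%. Over all sequences of the same lists the shares were 32.4%, 22.2% and 26.5%. The members' share therefore lay within 5 percentage points of the background in each list. Against the other chromosomes the difference was 3.18 ± 2.54 points (SD, n = 3), with exact permutation p = 0.25 and an adjusted p of 0.333 over 4 measures. With an overlap of 50% of each peak required, it was -0.595 points. Between the arms, 20 of 54, 22 of 97 and 20 of 65 long-arm peaks recurred, against 6 of 18, 6 of 28 and 6 of 19 short-arm peaks. The shares were 30.2% ± 7.20 and 28.8% ± 6.43 (SD, n = 3 each), a difference below the spread between replicates (exact permutation p = 0.5, adjusted p = 0.833). The overlap was also recounted after each list was cut to a −log10 q of at least 5. The long arm was then higher by 24.7 ± 16.0 points (SD, n = 3, exact permutation p = 0.25). In this recount none of the 3, 2 and 2 short-arm peaks left was overlapped in both other cut lists. Against the full lists all of these short-arm peaks were overlapped in both others, except the replicate 1 peak with its summit at 17604991. The 24.7 points therefore hold for the recount only.

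Recurrence went with the depth of the summit on both arms. Of long-arm peaks with a pileup of 4 or 5, 10 of 80 were overlapped in both other lists, against 2 of 24 in the short arm. At a pileup of 10 or more it was 36 of 57 long-arm peaks, against 11 of 21 short-arm peaks. The means over replicates in that deepest class were 63.8% ± 7.53 for the long arm, 53.9% ± 8.28 for the short arm and 59.1% ± 8.36 for the other chromosomes (SD, n = 3 each). Within the deepest class the arms' ranges overlapped, at 57.7% to 72.2% in the long arm and 44.4% to 60% in the short arm.

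Chromosome 20 held more peaks per Mb than the other chromosomes together. It held 1.14, 1.98 and 1.33 peaks per Mb in replicates 1, 2 and 3, against 0.466, 0.674 and 0.570 on chromosomes 1 to 22 and X without 20. The difference was 0.917 ± 0.344 peaks per Mb (SD, n = 3), higher in 3 of 3 replicates with no overlap, exact permutation p = 0.25 and adjusted p = 0.333 over 4 measures. Among 23 chromosomes it ranked 2, 2 and 3 by density. Chromosome 17, with 1.27 ± 0.254 peaks per Mb against 1.49 ± 0.441 on chromosome 20 (SD, n = 3 each), was denser in replicate 3. For the arms, the other chromosomes were taken whole and not by arm, so these ranks do not compare arms with arms. Taken alone, the long arm was passed by 1 of the 22 other chromosomes in every list, chromosome 19 with 3.16 ± 0.627 peaks per Mb. The short arm was passed by 6, 5 and 6 of them. Its density was 1.38 ± 0.152 times that of the other chromosomes, and that of the long arm 3.51 ± 0.474 times (SD, n = 3 each). Median fold was 4.22, 4.29 and 4.15 on chromosome 20 and 4.15, 4.16 and 3.97 elsewhere, a difference of 0.125 ± 0.0523 (SD, n = 3, exact permutation p = 0.25, adjusted p = 0.333). Median pileup was 7, 6 and 6 on chromosome 20 and 6 in every list elsewhere (exact permutation p = 1, adjusted p = 1).

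Peaks nearest to the arm boundary were far from it. The last short-arm summits lay at 25177104, 25196366 and 23617248 in replicates 1, 2 and 3, with folds of 3.52, 4.29 and 4.24. The first long-arm summits lay at 30358770, 30359568 and 30270559, with folds of 3.52, 5.69 and 3.64. No summit lay between 26 and 30 Mb, so the placement of the boundary within that stretch moved no peak between arms. On the side of lower coordinates the last peaks before the interval left out began at 40117189, 40143580 and 39690088, with folds of 3.52, 3.57 and 4.93. The first peaks after it began at 43057088, 43057220 and 43132782, with folds of 5.62, 4.07 and 5.38. The interval thus had no other peak close to it, and no member region was joined to it.

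Joining overlapping peaks of the 3 lists gave 183 regions on chromosome 20, of which 22 (12.02%) were found in all 3 lists, 35 in 2 and 126 in 1. Over all sequences the share in all 3 lists was 12.1%, so chromosome 20 stood at the background. The long arm held 16 of its 141 regions in all 3 lists (11.3%) and the short arm 6 of its 42 (14.3%). All 22 had at least 1 base covered in every list. In 18 of them the best peaks by fold of the 3 lists shared a base.

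The region of STX16 had the highest mean rank by fold of the 22. STX16 encodes syntaxin 16, a SNARE protein that works in transport from endosomes to the trans-Golgi network. The region ran over chr20:57242596-57244538. Its peaks had folds of 6.33, 10.1 and 9.27 in replicates 1, 2 and 3, with summit pileups of 8, 15 and 13 fragments. Exact 95% Poisson intervals of these pileups were 3.45 to 15.8, 8.40 to 24.7 and 6.92 to 22.2, which overlap. The mean fold was 8.57 ± 1.99 (SD, n = 3), and the −log10 q values were 5.94, 14.0 and 11.9. Summits lay at 57243092, 57243114 and 57243130, within 38 bp of each other. The peak of replicate 1 was 550 bp wide, and those of replicates 2 and 3 were 1758 and 1943 bp wide, reaching further toward higher coordinates. Among the peaks of chromosome 20 it ranked 6, 3 and 2 by fold in the lists. Within 50 kb, replicates 2 and 3 each had 1 further peak, with folds of 3.44 and 3.97 and pileups of 4 and 5, and these did not overlap each other.

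The region of EIF2S2 came next. EIF2S2 encodes the beta subunit of eIF2, the factor that brings the initiator tRNA to the ribosome. The region ran over chr20:32693403-32699911, and 1 peak per list filled nearly all of it, with widths of 6182, 6509 and 6277 bp. Starts differed by at most 124 bp and ends by at most 203 bp, and the 3 lists had 6182 bp in common. Folds were 6.21, 11.5 and 7.54 in replicates 1, 2 and 3, with a mean of 8.40 ± 2.73 (SD, n = 3). The peak of replicate 2 was the highest of its list on chromosome 20, and those of replicates 1 and 3 ranked 9 and 5. At the summit 10, 18 and 10 fragments were stacked. The 95% Poisson interval was 4.80 to 18.4 for replicates 1 and 3 and 10.7 to 28.4 for replicate 2, so these overlap. Replicates 1 and 3 had their summits at 32698191 and 32698206, but replicate 2 had its summit at 32697334, so that the 3 spread over 872 bp.

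A strong peak of replicate 2 alone lay below that region in coordinates. It covered chr20:32664329-32666363 with a fold of 10.2, a −log10 q of 20.01 and a pileup of 27 fragments (95% Poisson interval 17.8 to 39.3). No peak of replicates 1 or 3 overlapped it. In replicates 1 and 3 the nearest peaks were at chr20:32660202-32661422 and chr20:32660110-32661203, with folds of 4.33 and 4.45 and pileups of 7 and 8. Replicate 2 had another peak of its own at chr20:32684692-32685051, 360 bp wide, with a fold of 5.96. Signal that recurs and signal of 1 list therefore lay within 50 kb of each other. Whether the peaks of replicate 2 alone belong to EIF2S2 or to a neighbouring gene was not tested.

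**Figure D2:**
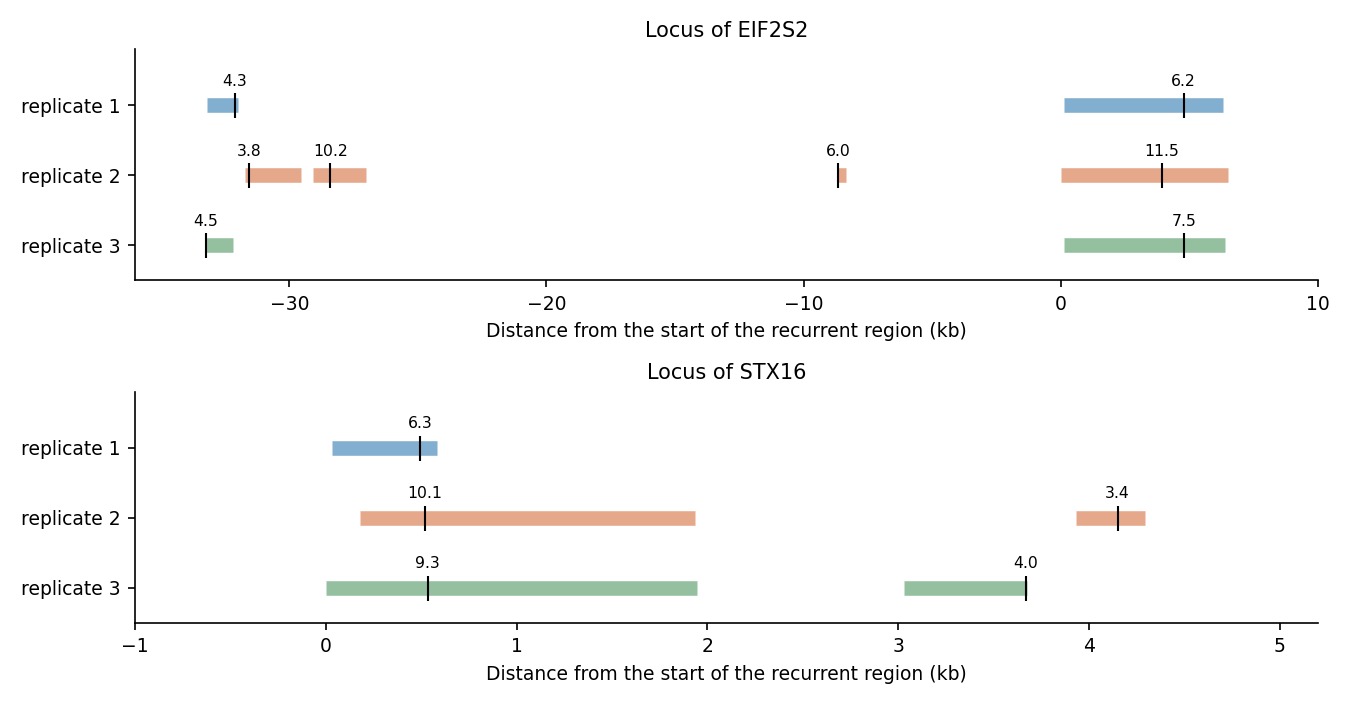
Peaks of each replicate around the recurrent regions of EIF2S2 (upper panel) and STX16 (lower panel), plotted by distance in kb from the start of the recurrent region. Bars span the peaks, black ticks mark summits and the numbers are the authors' fold enrichment. At STX16 the 3 summits lie within 38 bp. The peak with a fold of 10.2, in replicate 2 only, lies outside the EIF2S2 region, at lower coordinates.

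The names EIF2S2 and STX16 come from general knowledge of hg19 and were not checked against an annotation of that build. In RefSeq's order of protein-coding genes on GRCh38.p14, EIF2S2 lies between RALY and ASIP, and STX16 between APCDD1L and NPEPL1. RALY encodes an RNA-binding protein of the hnRNP family. No peak was assigned to an exon or intron, and other regions are given by position only.

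Of the other 8 regions among the 10 with the highest mean rank, 5 were on the long arm. The region at chr20:34293147-34295118 had the closest summits and the closest upper ends of all 22. Its 3 peaks were 1952, 1934 and 1927 bp wide, and their summits lay at 34293238, 34293235 and 34293236, within 3 bp. Its folds were 8.78, 4.60 and 5.53 in replicates 1, 2 and 3, a mean of 6.30 ± 2.20 (SD, n = 3), with pileups of 12, 17 and 13 fragments. Replicate 2 thus had the deepest summit and the lowest fold, beside an expected level of 2.91 fragments, against 0.480 in replicate 1 and 1.53 in replicate 3.

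The neighbouring region chr20:34309742-34323746 joined 10 peaks, 3, 4 and 3 in replicates 1, 2 and 3. Its best folds were 6.32, 6.19 and 8.73, a mean of 7.08 ± 1.43 (SD, n = 3). The best peak of replicate 2 lay apart from those of replicates 1 and 3, with summits spread over 7601 bp. Yet each list had a summit near the lower end, and these lay within 45 bp. Both regions belong to a cluster of 19 peaks from 34287771 to 34329957, the largest on the chromosome when peaks up to 50 kb apart are joined, with 6, 9 and 4 peaks in replicates 1, 2 and 3.

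At chr20:30370305-30380649 the best folds were 4.89, 7.86 and 8.73, with pileups of 7, 10 and 11. Replicates 2 and 3 had summits at 30376560 and 30376539, while the best peak of replicate 1 was 1035 bp wide at the lower end and did not overlap that of replicate 2. The region chr20:47736594-47740802 had folds of 6.39, 3.71 and 4.12, and its best peaks did not all share a base. At chr20:60864319-60866821 the folds were 4.88, 4.29 and 3.97, the narrowest relative spread of the 10, with pileups of 8, 5 and 5. Its 3 peaks had starts within 17 bp, while its summits were spread over 2325 bp.

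The short arm gave 3 of the 10, of which 2 were neighbours. The region chr20:17608159-17616241 had folds of 6.33, 4.37 and 7.28, a mean of 5.99 ± 1.49 (SD, n = 3), with summits within 46 bp. The region chr20:17595424-17597725 had folds of 6.71, 5.93 and 3.28 and pileups of 14, 12 and 19. Replicates 1 and 2 had summits at 17596618 and 17596615, while that of replicate 3 lay at 17595511. The third, chr20:1356333-1372853, was wide in every list, at 16448, 16521 and 16292 bp. Its folds were 4.33, 7.14 and 3.46 with pileups of 7, 9 and 6, and its summits were spread over 10304 bp although starts and ends differed by at most 109 and 120 bp.

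**Figure D3:**
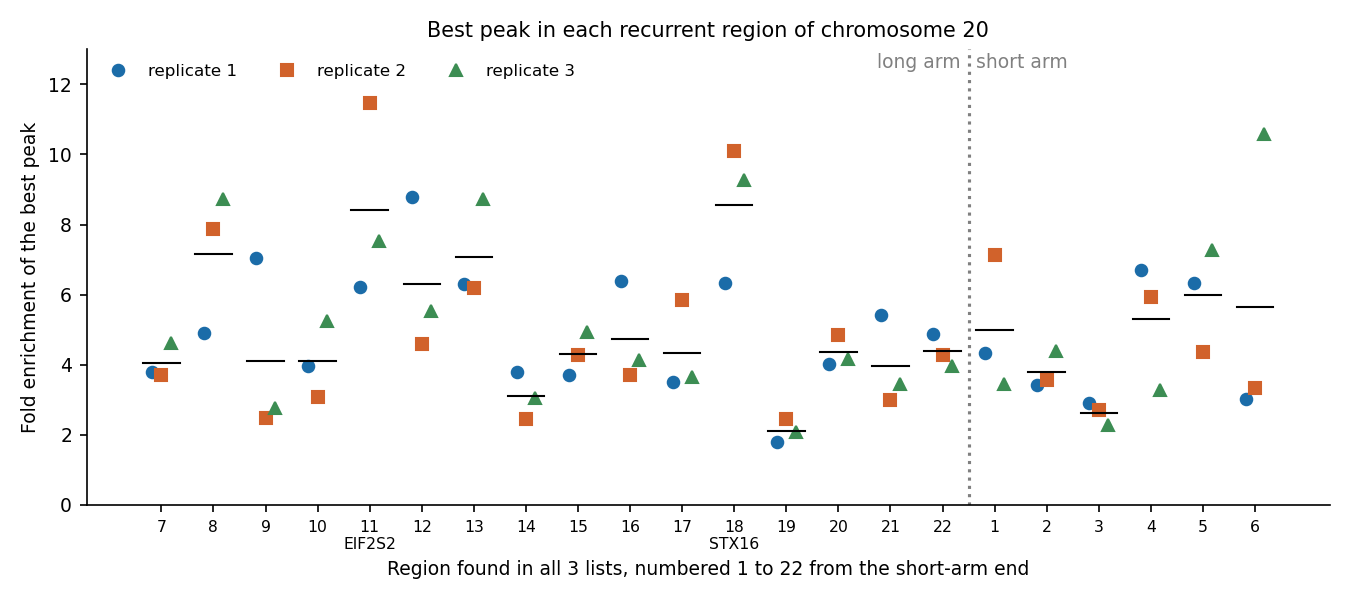
Fold enrichment of the best peak in each of the 22 regions found in all 3 lists, with the long arm at the left and the short arm at the right. Regions are numbered from the short-arm end, coloured points are replicates and black lines are their means. The mean lies between 2.11 and 8.57 in the long arm and between 2.63 and 5.99 in the short arm, and in region 6 the replicates span 3.03 to 10.6.

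The remaining 12 regions had mean folds between 2.11 and 5.65. On the long arm they began at 30363747, 32399356, 32439005, 35169942, 39690088, 48703788, 57466506, 57603893 and 60714319, and on the short arm at 2448387, 2636804 and 17617249. The last of these held the highest short-arm peak of replicate 3, with a fold of 10.6 and a pileup of 15 at 17617360. In replicate 2 a summit stood at 17617364 with a fold of only 3.32, and in replicate 1 the fold was 3.03. Replicates 2 and 3 therefore had a summit at nearly the same place with different folds. The pileups were 11, 12 and 15 fragments in replicates 1, 2 and 3, beside expected levels of 2.96, 2.91 and 0.511. The highest short-arm peak of replicate 1, with a fold of 7.74 at 17604991, was overlapped in neither other list, and that of replicate 2 was the peak of 7.14 in the region at 1356333.

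Summits of over 40 fragments had low folds. The region chr20:57466506-57480801 had pileups of 62, 70 and 69 fragments in replicates 1, 2 and 3, with summits at 57466939, 57466909 and 57466911, within 30 bp. Its best folds were 1.81, 2.45 and 2.08, since the expected level was 33.8, 27.96 and 32.7 fragments. A pileup of 62 has a 95% Poisson interval of 47.5 to 79.5 and a pileup of 70 one of 54.6 to 88.4. The deepest summits of the short arm were at chr20:2636804-2638173, with pileups of 24, 30 and 28, expected levels of 7.61, 10.5 and 11.7 and folds of 2.90, 2.70 and 2.28. In each of these regions the values of the 3 lists lay close together, and the ratio to the expected level was small although many fragments were stacked.

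Across the members, 104 of 281 summits had a pileup of 4 or 5, 99 had 6 to 9 and 78 had 10 or more. Per list, 36.7% ± 6.15 of the members had 4 or 5, against 41.8% ± 1.92 on the other chromosomes (SD, n = 3 each). For 10 or more the shares were 27.6% ± 2.41 and 24.2% ± 0.875. A pileup of 4 has a 95% Poisson interval of 1.09 to 10.2, so single shallow peaks are imprecise. These intervals cover counting error only. At a pileup of 4 or 5 the median folds were 3.52, 3.79 and 3.65 in replicates 1, 2 and 3, and at 10 to 19 they were 5.29, 4.37 and 5.26. With 20 or more there were 2, 6 and 6 peaks, with median folds of 2.36, 2.58 and 2.31. The peak of replicate 2 near EIF2S2 had the highest fold of these 14, 10.2 at an expected level of 1.75, and the other 13 had folds between 1.81 and 4.52. The expected level lay within 0.5% of the lowest in its list for 40.7%, 46.4% and 38.5% of long-arm peaks, against 44.4%, 39.3% and 15.8% of short-arm peaks. On the other chromosomes it did so for 51.3%, 42.8% and 40.2% of peaks.

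**Figure D4:**
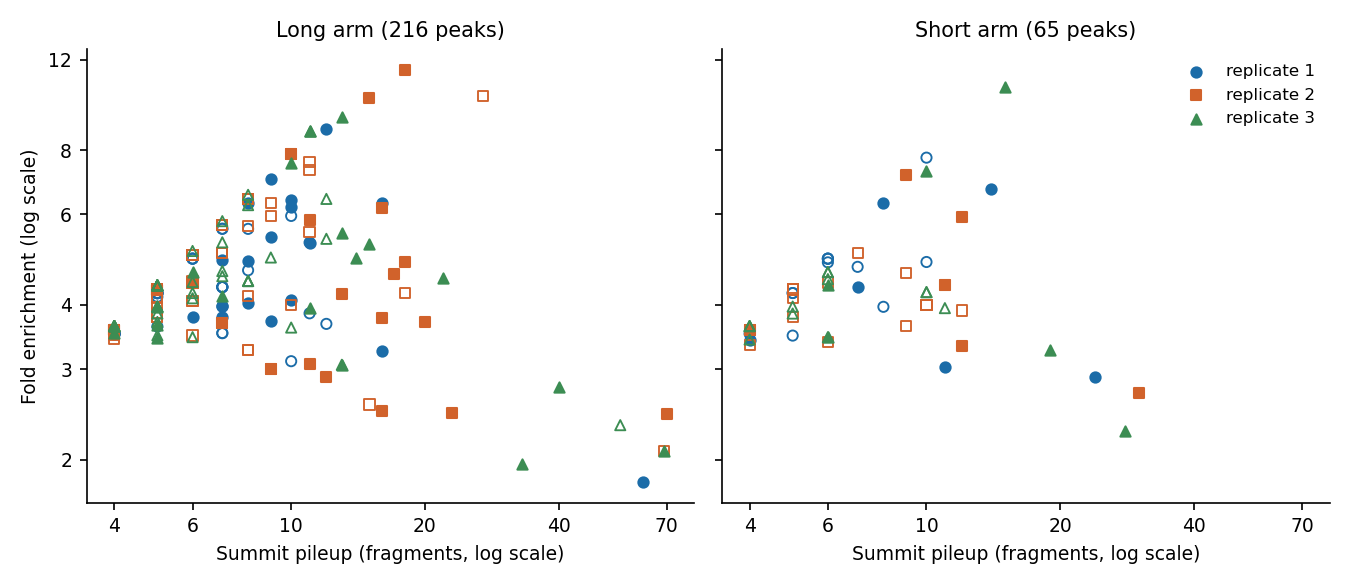
Fold enrichment against summit pileup for each peak of chromosome 20, on log axes, with the long arm at the left and the short arm at the right. Symbols give the replicate, and filled symbols are peaks overlapped in both other lists. Summits of over 40 fragments occur on the long arm only and have folds between 1.81 and 2.45, and filled symbols are more frequent at 10 fragments or more.

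The 5 fullest windows of 1 Mb held 107 of the 281 peaks (38.1%) on 7.94% of the length, or 38.9%, 36.8% and 39.3% of the peaks of replicates 1, 2 and 3. Since they were chosen as the fullest, these shares are a description only. They were 34 to 35 Mb with 8, 12 and 7 peaks, 32 to 33 Mb with 7, 11 and 7, 47 to 48 Mb with 3, 9 and 8, 17 to 18 Mb with 7, 7 and 5, and 57 to 58 Mb with 3, 7 and 6. The first, the second and the last hold the cluster at 34.3 Mb, EIF2S2 and STX16. Windows with a peak in every list numbered 15 on the long arm and 4 on the short arm. The longest stretch without a peak in any list ran from 4902789 to 13698304 on the short arm, 8.80 Mb, and the next, from 25196413 to 30270472, crossed the arm boundary. Joining peaks up to 50 kb apart gave 53 clusters on the long arm and 22 on the short arm. Neighbouring peaks may come from 1 transcript, so peaks of a cluster are not independent.

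Peaks of at least 10 kb numbered 26, with 8, 5 and 6 on the long arm and 3, 2 and 2 on the short arm in replicates 1, 2 and 3, and they made up 47.1% of the covered length. Their share per list was 10.1% ± 4.87 on chromosome 20 and 9.24% ± 1.34 on the other chromosomes (SD, n = 3 each). By arm it was 9.73% ± 4.85 in the long arm and 11.4% ± 4.83 in the short arm. Of the 26, 11 were overlapped in both other lists and 6 in neither. These overlaps and the covered length are given for chromosome 20 only. The widest shared region, chr20:32399356-32436215, was filled by peaks of 36439, 36535 and 36860 bp whose starts and ends differed by at most 308 and 113 bp. Their folds were 7.03, 2.49 and 2.77 in replicates 1, 2 and 3, with pileups of 9, 16 and 40 fragments. The expected levels were 0.422, 5.83 and 13.8, so the highest fold belonged to the shallowest summit. Summits of replicates 2 and 3 lay near the lower end, at 32399634 and 32399428, and that of replicate 1 at 32414410, so the ends recurred more closely than the summit. The single peak of at least 50 kb, 60763 bp from 20392735 in replicate 1, had a fold of 4.22 and no overlap in the other lists.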

How the data were processed

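Peak lists of the 3 anti-RBM8A immunoprecipitates were used as deposited, 1 list per replicate. The tools named, per the submitters' processing notes, are MACS2, HISAT2, GATK, SAMtools and FastQC. Their versions and settings and the background sample of the fold are not given in the sources. The notes name hg38, but sequence names in the lists are those of hg19. The deposited fold is a ratio at the summit, by the authors. The authors' −log10 p-value and −log10 q-value were deposited too, the latter never below 1.32, and the deposited score repeats the q-value and was not used.

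Read totals were not in the lists, so depth is unknown. Whole summit pileups up to 400 were searched for one that gave the fold, (pileup + 1) / (expected + 1), and the Poisson p-value within 0.0005, and 281 of 281 members had one. The search was tested on data simulated with this same formula, and the overlap counts on planted shared peaks. This checks the calculation, not whether the formula fits the lists.

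Arms, and chromosome 20 and the other chromosomes, were compared within each list, by an exact two-sided paired permutation test over replicates with Benjamini-Hochberg adjustment over 5 and 4 measures. The labels do not say whether replicates were separate cultures, so p-values cover only the spread between these samples. Named positions were the 2 loci, the 10 regions of all 3 lists with the highest mean fold rank, the rest of these regions by position, neighbours of the limits, the 5 fullest windows, the highest peaks and peaks of at least 50 kb. The strong peak of replicate 2 near EIF2S2, the deepest summits and the counts of clusters and of high folds were chosen after values were seen. Members and lists were chosen with earlier results of these data known. Lengths of hg19 came from pyranges 0.1.4. Tests used scipy 1.17.1, tables pandas 2.3.3 and numpy 2.4.6, and plots matplotlib 3.10.9, under Python 3.11.15.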

Additional observations from a re-analysis of the deposited data

How the results depend on the processing

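Density kept its direction, long arm over short arm and chromosome 20 over the rest, under all alternatives run for it. Without 1 replicate the arm difference was 1.00 to 1.43 peaks per Mb and that to other chromosomes 0.720 to 1.04. Restricted to a −log10 q of 5 or more, the latter was 0.201, from means of 0.286 on chromosome 20 and 0.0852 on the rest. Restricted to a fold of 5 or more, it was 0.231, from means of 0.355 and 0.124. Fewer peaks are kept in both groups under either limit. Small differences changed sign with some settings; the cause was not tested. The recurrent share, long minus short arm, was -2.18 points for widths below 10 kb, -0.270 with 50% overlap, -9.83 to 3.96 without 1 replicate and 24.7 at a −log10 q of 5 or more, against 1.38 for all members. For chromosome 20 minus the rest it was -0.595 with 50% overlap and -2.19 to 7.08 without 1 replicate. For the limits of width and q, overlap was recounted among the peaks kept. Without 1 replicate, overlap with the 1 other list left was enough, so these shares are defined differently from that of all members. Median fold, long minus short arm, was -0.0317 for widths below 10 kb, -0.0230 to 0.280 without 1 replicate and -1.25 at a −log10 q of 5 or more. Median width, long minus short arm, was 295 bp with the MYBL2 interval kept, 83.7 bp for widths below 10 kb and 50 to 224 bp without 1 replicate, against 135 bp for all members. At a −log10 q of 5 or more this width difference was -1873 ± 3456 bp (SD, n = 3), although the long arm was wider in 2 of 3 replicates. Only 3, 2 and 2 short-arm peaks were left there. Median pileup at that limit, chromosome 20 minus the rest, was -0.833 ± 2.02 (SD, n = 3). Regions in all lists at that limit numbered 3, those of EIF2S2, STX16 and chr20:34293147-34295118. Regions of both remaining lists numbered 29 to 42 without 1 replicate, with 42 without replicate 1 and 35 without replicate 3, since fewer lists must share them. No paired analysis was possible because the inputs with the same replicate numbers are not analysed here, which concerns immunoprecipitates against inputs only. The comparisons of arms and chromosomes were paired within each list. Shallow summits and 3 lists limit what single peaks and tests can show.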

Other observations

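Regions found in 2 of the 3 lists numbered 25 on the long arm and 10 on the short arm. Of these 35, 19 were of replicates 2 and 3, 9 of replicates 1 and 2, and 7 of replicates 1 and 3. Replicates 2 and 3 also had the most members, 125 and 84 against 72 in replicate 1. The counts by pair are given for chromosome 20 only, without a background over all sequences. The deepest was chr20:57484461-57485467, with pileups of 69 and 55 fragments in replicates 2 and 3 and folds of 2.08 and 2.34, next to the deep region that begins at 57466506. The highest folds in such regions were 7.86 and 6.55 in replicates 2 and 3 at chr20:43550252-43553049, and 7.33 and 4.66 in the same lists at chr20:35852529-35855712. Whether replicate 1 lacked signal there or fell short of the cutoff cannot be told from a peak list.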
